A study of Mus musculus with 24 samples.

Results

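The ribosome precipitate of the dentate gyrus was compared with its input at day 18. RiboTag mice carry a form of Rpl22, a protein of the large ribosomal subunit, that gains a haemagglutinin (HA) tag where Cre recombinase has acted. Antibody to the tag then pulls down ribosomes of the recombined cells together with the RNA they are translating. Here the precipitate is called IP and the unprecipitated tissue RNA input. All mice of the 8 libraries were female C57BL6 animals of the Tg(Nes-cre/ERT2) by RPL22HA/WT cross. All received tamoxifen (160 mg per kg) on 5 days at an age of 9 to 11 weeks, so that controls and runners carried the same alleles and the same drug. They then had 18 days with a free running wheel, or with a glued wheel in the sedentary group. There were 4 IP and 4 input libraries, made of 4 groups (IP or input, running or sedentary) of 2 libraries each, lettered c and d, out of 24 libraries in the series. The driver limits the model: recombination follows the Nestin promoter, which is active in neural stem cells, so the tag marks those cells and every descendant, and any other cell in which the driver was active. The number of mice behind a library, and whether the libraries of a group are separate mice, is not in the labels. All p-values here measure only how far these libraries spread, and that spread may be technical.

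Genes were kept where their mean TPM (transcripts of a gene as a share of all transcripts of the library, corrected for length) was 10 or more in the IP or in the input. This held for 11987 of the 23306 genes of the deposited table. Of these, 9978 reached 10 TPM in both fractions, 1241 in the IP alone and 768 in the input alone. Just inside the threshold lay 4933412E12Rik and Mrgprb5, whose higher mean was 10 and 10.02 TPM. Just outside lay Hrh3 and Cdan1, each at 9.998 TPM.

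In the adult dentate gyrus, radial glia-like stem cells divide into intermediate progenitors and neuroblasts, which become granule neurons over several weeks. Young granule neurons carry doublecortin and collapsin response mediator proteins while they extend an axon, and lose them as they mature. The same tissue holds mature granule neurons, interneurons, mossy cells, astrocytes, oligodendrocytes, microglia and vessels, all of which contribute to the input. RNA on ribosomes is mostly spliced messenger RNA, whereas total tissue RNA also holds nuclear, small and noncoding RNA.

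Of the 11987 genes, 6001 were higher in the IP (50.1% of those tested) and 2147 were lower (17.9%), with limma's moderated test on log2(TPM + 1) at an adjusted p under 0.05. Over all 21324 genes fitted, the shares were 30.1% higher and 34.5% lower. Differences over 2-fold numbered 1685 upward and 820 downward, and those over 8-fold 40 upward and 123 downward. Of the 40, 22 were kept through the IP alone, and of the 123, 118 through the input alone. The median gene was 0.35 higher in the IP on the log2 scale, so a list is set beside that value below. Among genes at 10 TPM or more in both fractions, 4950 were higher and 1469 lower. Of the genes that passed through the IP alone, 1051 were higher, and of those that passed through the input alone, 678 were lower. The rule itself set those directions. When the mean TPM of olfactory receptor genes in a library was first taken off every gene, 90.4% of the calls were upward in place of 73.6%. Pairs of IP libraries correlated across the genes with Pearson's r of 0.958 to 0.977 and pairs of input libraries with 0.944 to 0.972. An IP and an input library gave 0.753 to 0.842. The scatter of mean IP against mean input shows the split.

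**Figure D1:**
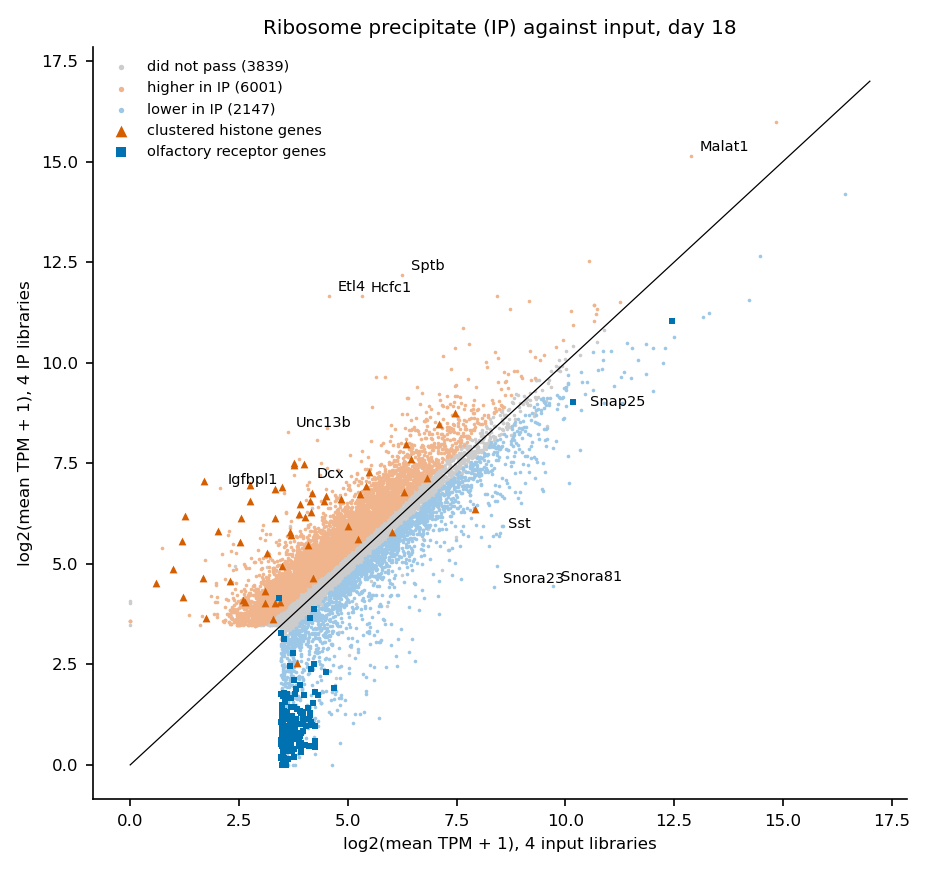
Mean TPM of each of 11987 genes in the 4 IP libraries (vertical) against the 4 input libraries (horizontal), both as log2(mean TPM + 1). Points are coloured by the test (6001 higher, 2147 lower, 3839 neither), triangles are clustered histone genes and squares olfactory receptor genes. The line marks equal levels. Etl4, Hcfc1 and Sptb lie far above it, and most olfactory receptor genes lie between 10 and 20 TPM in the input and near 0 in the IP.

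Libraries were first checked for the level of genes that this tissue does not use. Olfactory receptor genes, which serve smell in the nose, had a median TPM of 6.04, 7.56, 3.50 and 5.65 in the input libraries sedentary c, running c, sedentary d and running d. The IP libraries stood at 0.43, 0, 0 and 0.51 in the same order, which is the order of all values below. Every input library was above every IP library. Their mean level was 12.3 ± 3.43 TPM in the input and 2.96 ± 0.425 TPM in the IP (SD, n = 4 each; two-sided exact permutation test over 70 relabellings, p = 0.0286, the smallest this design can give). A pair of entries with very high values, Olfr856-ps1 and Olfr613, weighs on that mean. At days 11 and 27 the input medians ran from 0 to 2.53 TPM, so the day 18 inputs stood above all 8 of them. The 10 TPM rule did not remove all such genes: 146 olfactory receptor genes were kept, 141 of them through the input alone, and 140 were lower in the IP. Genes kept through the input alone also held 17 vomeronasal receptor genes and 204 gene models without a proper name.

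The tagged gene and the markers of the labelled cells were compared next. Rpl22 stood at 135, 152, 158 and 165 TPM in the IP and 114, 115, 132 and 97.8 TPM in the input. All IP libraries were above all input libraries, by 0.41 ± 0.12 on the log2 scale (SE; adjusted p = 0.0085), a call that was lost under median-of-ratios scaling. The measurement sums tagged and untagged transcripts, so it does not show recombination. The IP is labelled as immature neurons of the dentate gyrus. Dcx, which encodes doublecortin, a microtubule protein of migrating young neurons, stood at 108, 196, 77.2 and 137 TPM in the IP. In the input it stood at 15.4, 15.6, 16.3 and 17.2 TPM. The groups were far apart, and both running IP libraries were above both sedentary ones. The difference of 2.85 ± 0.14 corresponds to 7.21-fold (adjusted p = 4e-08). Prox1, the transcription factor that sets granule neuron identity, rose as well, from 183, 169, 226 and 191 TPM in the input to 427, 659.8, 414 and 552 TPM in the IP (1.39 ± 0.12, adjusted p = 2.5e-06).

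Genes of intermediate progenitors and neuroblasts lay far toward the IP. Of 17 such genes, 14 were higher and none lower, with a median of 1.84 against 0.35 for all genes. The rule set the direction of 8 that were kept through the IP alone, and of the 9 at 10 TPM or more in both fractions 6 were higher. Igfbpl1, a secreted protein related to the insulin-like growth factor binding proteins and a neuroblast marker, stood at 99.7, 173, 71.6 and 126 TPM in the IP. It stood at 2.86, 3.87, 2.1 and 3.78 TPM in the input. That difference of 4.79 ± 0.16 (27.6-fold, adjusted p = 1.4e-09) was the highest of the list. Sox4 and Sox11, transcription factors of newborn neurons, rose by 3.69 ± 0.13 (adjusted p = 2.1e-09) and 2.55 ± 0.15 (adjusted p = 1.1e-07). Draxin, a secreted axon guidance protein, rose by 3.59 ± 0.19 (adjusted p = 6.8e-08). Neurod1, a proneural factor of the granule lineage, stood at 230.4, 354, 206 and 263 TPM in the IP and 54.7, 51.1, 81.4 and 61.5 TPM in the input, and rose by 2.06 ± 0.15. Elavl2, Elavl4 and Celf4, RNA-binding proteins that mature neurons also express, did not pass, at -0.13, -0.27 and 0.18.

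Of 26 immature granule neuron genes, 20 were higher and 1 lower, with a median of 1.10. Dpysl3 (collapsin response mediator protein 4), which acts in growth cones, stood at 225, 529, 207 and 359 TPM in the IP and 22.9, 20.9, 23.7 and 20.6 TPM in the input. It rose by 3.74 ± 0.13, or 13.4-fold (adjusted p = 2.2e-09). Its relative Dpysl5 rose by 3.38 ± 0.14 and the beta-tubulin Tubb2b by 2.94 ± 0.14. Not every member followed: Gap43 stood at -0.21, Stmn2 at 0.25 and Camk4 at 0.07, none of which passed, and Mllt11 fell by 0.46. Within the list, the differences ran from -0.46 to 3.74.

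Most stem cell genes were higher as well. Of 21 genes of radial glia-like stem cells, 18 were higher and 1 lower (median 1.21), and 14 and 1 of the 16 at 10 TPM or more in both fractions. Vim, an intermediate filament, stood at 222, 221, 202 and 181 TPM in the IP and 30.2, 32.8, 34.6 and 30.7 TPM in the input, and rose by 2.65 ± 0.12 (adjusted p = 1.7e-08). The Notch receptors Notch2 and Notch1 rose by 2.77 ± 0.13 and 2.36 ± 0.13, and the glial glutamate transporter Slc1a3 by 1.84 ± 0.14. The stem cell transcription factor Sox2 rose by 1.05 and Nes, the gene whose promoter drives the Cre, by 0.999. Hey1 was the member that fell, by 0.32. Astrocytes share several of these genes. The RNA labelled as immature neurons thus also held stem cell and glial messages: Gfap stood at 559, 403, 443 and 410.1 TPM in the IP, above its 253, 258, 258 and 229.9 TPM in the input (0.85 ± 0.12, adjusted p = 7.1e-05).

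Of 25 cell cycle genes, 22 were higher and 2 lower (median 1.28). Top2a, the topoisomerase of dividing cells, stood at 44.7, 70.6, 33.9 and 55.9 TPM in the IP and 2.98, 5.2, 3.5 and 3.45 TPM in the input (3.42 ± 0.17, adjusted p = 2.7e-08). The replication helicase subunit Mcm3, the kinase Cdk4 and the condensin subunit Smc2 rose by 2.37, 1.84 and 1.83. Mki67 rose by 0.72, while Tyms and Ccnb1 fell by 1.59 and 0.58. The rule set the direction of 13 that were kept through the IP alone, Top2a and Mcm3 among them. Among the 12 at 10 TPM or more in both fractions, 9 were higher and 2 lower. Summed over the 25 genes, the TPM went the other way, from 1520 to 1722 in the IP libraries and from 2071 to 3731 in the input libraries.

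Histone genes were the list farthest toward the IP. Clustered histone genes lie in tandem arrays, have 1 exon each, and are transcribed during DNA replication into messages that end in a stem-loop in place of a poly(A) tail. Upstream sequences of 3 of the genes that rose most are shown because these genes moved together. They are the 250 bases before the transcription start on the coding strand, from RefSeq on GRCm38.p6, with CCAAT and TATAAA on either strand (ATTGG and TTTATA when reversed) in capitals. None of these motifs overlaps another here.
Hist1h2af, chr13:23533625-23533874, plus strand: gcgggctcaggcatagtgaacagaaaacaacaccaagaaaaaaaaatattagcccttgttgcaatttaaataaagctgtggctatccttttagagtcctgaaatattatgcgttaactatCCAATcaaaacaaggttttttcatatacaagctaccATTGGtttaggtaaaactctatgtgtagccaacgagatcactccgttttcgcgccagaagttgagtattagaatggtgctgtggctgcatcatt
Hist1h2bj, chr13:22042948-22043197, plus strand: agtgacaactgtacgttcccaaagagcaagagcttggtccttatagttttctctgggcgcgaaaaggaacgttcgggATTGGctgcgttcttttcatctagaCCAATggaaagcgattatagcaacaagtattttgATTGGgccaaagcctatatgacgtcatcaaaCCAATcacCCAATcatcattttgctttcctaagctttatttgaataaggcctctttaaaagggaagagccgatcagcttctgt
Hist1h3b, chr13:23752095-23752344, plus strand: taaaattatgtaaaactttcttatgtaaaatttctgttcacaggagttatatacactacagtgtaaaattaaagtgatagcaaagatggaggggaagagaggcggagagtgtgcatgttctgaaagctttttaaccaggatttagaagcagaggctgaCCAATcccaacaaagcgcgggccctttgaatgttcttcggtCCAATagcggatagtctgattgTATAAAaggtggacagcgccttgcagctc
CCAAT was found upstream of 35 of the 40 histone genes that were higher in the IP and had a RefSeq entry (87.5%), against 34.5% of all 27025 upstream sequences of that length. TATAAA was found upstream of 20 of the 40, against 13.0% of all. Over all 61 histone genes with an entry the shares were 82.0% and 47.5%. These shares describe the sequences and not what binds them.

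Of 58 histone genes, 44 were higher in the IP and 1 lower, with a median of 2.07. Hist1h2af stood at 86.2, 186, 115 and 144 TPM in the IP and 1.09, 0, 3.05 and 4.91 TPM in the input, and rose by 5.597 ± 0.64 (adjusted p = 0.0012). Hist1h3b stood at 98.9, 130.1, 129 and 136 TPM in the IP and 7.8, 11.5, 3.78 and 0 TPM in the input (4.69 ± 0.91, adjusted p = 0.011). In both genes the lowest IP library was above the highest input library, but the low input values gave wide errors. Hist1h2bj ranged from 8.23 to 138.8 TPM among the IP libraries and rose by 4.93 ± 0.92 (adjusted p = 0.0081). Others over 4 on the log2 scale were Hist1h2bm, Hist1h2bk, Hist1h2ao and Hist1h2bh, at 4.498, 4.38, 4.32 and 4.19. The call for Hist1h2ao was lost in 6 of the 8 fits that left out 1 library, and that for Hist1h2bk was lost without the sedentary IP library c. The linker histone Hist1h1b, with higher input values, rose by 2.804 ± 0.16 and Hist1h3g by 3.801 ± 0.17. Hist4h4 fell by 1.55. Reads from near-identical histone genes can be divided among them in the authors' counting, so single members are uncertain. Of the 58, 24 were kept through the IP alone. Among the 33 at 10 TPM or more in both fractions, 25 were higher and 1 lower.

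The largest differences of all lay in genes with no shared role. Etl4, named for an enhancer trap locus, stood at 3431, 2533, 3756 and 3311 TPM in the IP and 22.96, 23.6, 24.6 and 20.1 TPM in the input. Hcfc1, a cofactor that joins transcription factors to chromatin enzymes, stood at 3692, 2184, 3892 and 3137 and 41.2, 35.7, 41.5 and 38.98 TPM. Sptb, a beta-spectrin of the membrane skeleton, stood at 4973, 3013, 6016 and 4717 and 78.6, 74.6, 79.9 and 68.5 TPM. All 3 were over 50-fold apart with tight inputs, and within the IP each was lowest in running c and highest in sedentary d. They rose by 7.09 ± 0.13, 6.29 ± 0.13 and 5.896 ± 0.15 (adjusted p = 3.6e-12, 1.5e-11 and 8.1e-11). The differences at day 11 were 7.53, 6.22 and 5.91 and at day 27 7.06, 6.25 and 5.87. Unc13b, which primes synaptic vesicles, stood at 346, 267, 310.2 and 325 TPM in the IP and 11.4, 10.9, 11.04 and 11.8 TPM in the input (4.66 ± 0.11, adjusted p = 5.5e-11). Another spectrin and giant cytoskeletal linkers rose too: Sptbn1 by 3.21 ± 0.15, Macf1 by 2.74 ± 0.13 and Ank2 by 2.66 ± 0.13. Apoo-ps, a pseudogene, and Rpl26, a ribosomal protein with many near-identical copies, completed the 15 largest at 4.804 and 4.35. Rpl26 was listed at 0 TPM in 3 of 4 inputs, and its call was lost in 5 of the 8 fits that left out 1 library. Both are uncertain for the same reason as single histone genes.

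**Figure D2:**
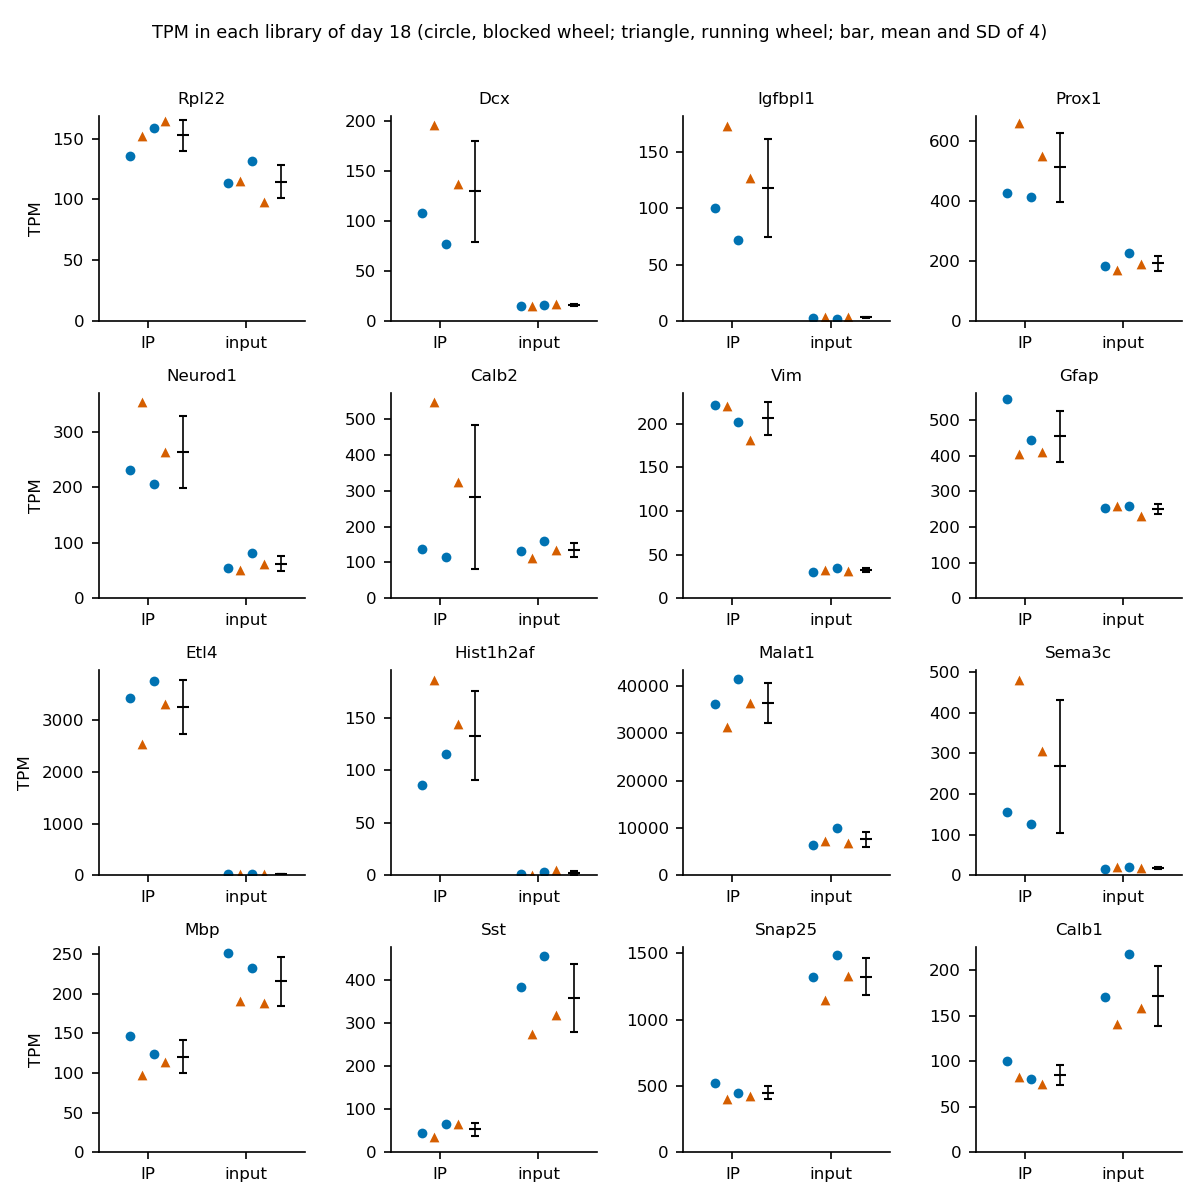
TPM of 16 genes in each of the 8 libraries of day 18, IP on the left and input on the right of each panel. Circles are sedentary and triangles running libraries, and the bar gives the mean and SD of 4. Dcx, Igfbpl1, Vim, Etl4, Malat1 and Sema3c are higher in every IP library than in any input library, and Mbp, Sst, Snap25 and Calb1 are lower. In Calb2 both running IP libraries stand above the other 6.

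Lists of neuronal growth were high in the IP. Of 29 microtubule and growth cone genes, 20 were higher and 3 lower (median 0.97). The 3 that fell were Map1a, Pfn2 and Tmsb4x, at -0.37, -0.87 and -0.85. Of 36 axon guidance and adhesion genes, 28 were higher and 2 lower (median 0.88). The giant cadherin Fat4 rose by 3.97 ± 0.15. Sema3c, a secreted guidance cue, stood at 157, 481, 126 and 307 TPM in the IP and 15.1, 20.8, 19.9 and 18.3 TPM in the input, with both running IP libraries above both sedentary ones. It rose by 3.59 ± 0.16 (adjusted p = 1.8e-08). The plexins Plxna2 and Plxnb2, receptors of semaphorins, rose by 2.16 and 1.85.

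Most regulators of chromatin and RNA were higher. Of 30 transcription and chromatin regulators, 28 were higher and none lower (median 0.89), and of 30 RNA processing and binding genes, 21 were higher and none lower (median 0.56). The maintenance DNA methyltransferase Dnmt1 stood at 75.7, 125, 71 and 101 TPM in the IP and 25.5, 26.1, 27.4 and 22.3 TPM in the input (1.81 ± 0.12, adjusted p = 2.7e-07). The chromatin remodeller Chd7, which keeps neurogenesis going, rose by 1.64 ± 0.11 and the splicing scaffold Srrm2 by 1.64 ± 0.12. Chd3, a chromatin remodeller, did not pass, at 0.21. Of 16 cholesterol synthesis genes, 11 were higher and none lower (median 0.66), among them Lss at 0.94, Cyp51 at 0.82 and Sqle at 0.81.

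Genes of the mature circuit were lower. Of 20 mature granule neuron genes, 10 were lower and 4 higher (median -0.22). Calb1, the calcium buffer calbindin of mature granule cells, stood at 101, 83.4, 80.8 and 75.2 TPM in the IP and 171, 141, 218 and 159 TPM in the input, and fell by 0.997 ± 0.13 (adjusted p = 3.3e-05). Penk, Rgs4 and Rasgrp1 fell by 1.45, 1.41 and 1.33, while the actin-binding Cald1 rose by 1.48. Of 12 genes of pyramidal and mossy neurons, 8 were lower and 2 higher (median -0.47), with Pcp4 at -1.59 and the vesicular glutamate transporter Slc17a7 at -0.89. Without the sedentary IP library d, or without the running input library c, 5 of the 12 were lower. In these bulk samples, fewer cells of a type and less RNA per cell cannot be told apart.

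Interneuron messages showed wide gaps. Of 17 interneuron genes, 11 were lower and 2 higher (median -0.76). The rule set the direction of 5 that were kept through the input alone, Pvalb among them, and of the 12 at 10 TPM or more in both fractions 7 were lower and 2 higher. Sst, the neuropeptide somatostatin, stood at 45.7, 36.6, 66.8 and 66.3 TPM in the IP and 385, 276, 456 and 319 TPM in the input, and fell by 2.73 ± 0.19 (adjusted p = 8.7e-07). Pvalb, the calcium buffer of fast-spiking cells, stood at 2.08, 3.38, 1.3 and 2.96 TPM and 19.1, 19.1, 20.6 and 19.7 TPM. Cck fell by 1.81 ± 0.11 and Gad2, a GABA synthesis enzyme, by 1.52 ± 0.13. In all 4 genes every IP library was below every input library. Of 18 neuropeptide and secreted signal genes, 14 were lower and 2 higher (median -1.03), and 10 and 1 of the 13 at 10 TPM or more in both fractions, with Adcyap1 at -2.22. Tac2, which neuroblasts also express, was one of the 2 that rose, at 2.24.

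Glial and vascular lists divided within themselves. Of 13 oligodendrocyte genes, 11 were lower and 1 higher (median -1.12). Mbp, a myelin protein, stood at 147, 97.6, 124.1 and 113 TPM in the IP and 251, 191, 233 and 188 TPM in the input, and fell by 0.84 ± 0.12 (adjusted p = 5.8e-05). Mal, Ermn and Apod fell by 1.59, 1.32 and 2.45. Of 18 astrocyte genes, 5 were higher and 5 lower (median 0.25). Mfge8, a secreted protein that tags dying cells for engulfment, rose by 2.03 ± 0.13, whereas the calcium-binding S100b fell by 1.79 ± 0.15 and the water channel Aqp4 by 0.55. Without the sedentary input library d, 8 of the 18 were higher. Of 9 precursor genes of oligodendrocytes, 5 were lower and 2 higher (median -0.41), with Ptprz1, which stem cells share, at 1.603 and Pdgfra at -1.06. Of 13 microglia genes, 11 were lower and 1 higher (median -0.89), with Ctss and C1qa at -1.78 and -1.47. Of 10 endothelial and mural genes, 6 were lower and 2 higher (median -0.56), but 5 were kept through the input alone and 2 through the IP alone, and of the other 3 genes 2 were lower. Of the oligodendrocyte, precursor and microglia genes at 10 TPM or more in both fractions, 6 of 8, 4 of 7 and 7 of 9 were lower.

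The counts of lower genes in these lists moved with the olfactory receptor level taken off. After subtraction of the library's mean olfactory receptor TPM, 1 microglia gene, 5 oligodendrocyte genes, none of the endothelial and mural genes and none of the precursor genes were lower, and 6 interneuron and 5 mature granule neuron genes were. After subtraction of its median, 6 microglia, 1 endothelial and mural, 2 precursor and 5 mature granule neuron genes were lower. In pyramidal and mossy neurons 4 were lower under either. The defining markers were present in the IP: Mbp had at least 97.6, Sst at least 36.6 and Cx3cr1 at least 9.48 TPM there. Summed over the list, microglia genes ran from 1021 to 1449.7 TPM in the IP and from 1128 to 1382 TPM in the input, and oligodendrocyte genes from 1235 to 1540.3 and from 1204 to 1547 TPM. Those sums overlap between the fractions. The part of the background in these results was not tested.

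A choroid plexus marker was high in the libraries of 1 code. Ttr, the plasma carrier transthyretin made by choroid plexus, stood at 1.13, 2.85, 0.940 and 106 TPM in the IP and 9.49, 15.3, 10.8 and 539 TPM in the input. The high value lay in running d in both fractions. Enpp2, which choroid plexus also expresses, had its highest IP and input values there as well, at 73.7 and 153 TPM. For Ttr, the difference between fractions did not pass (-2.33 ± 1.698, adjusted p = 0.29).

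**Figure D3:**
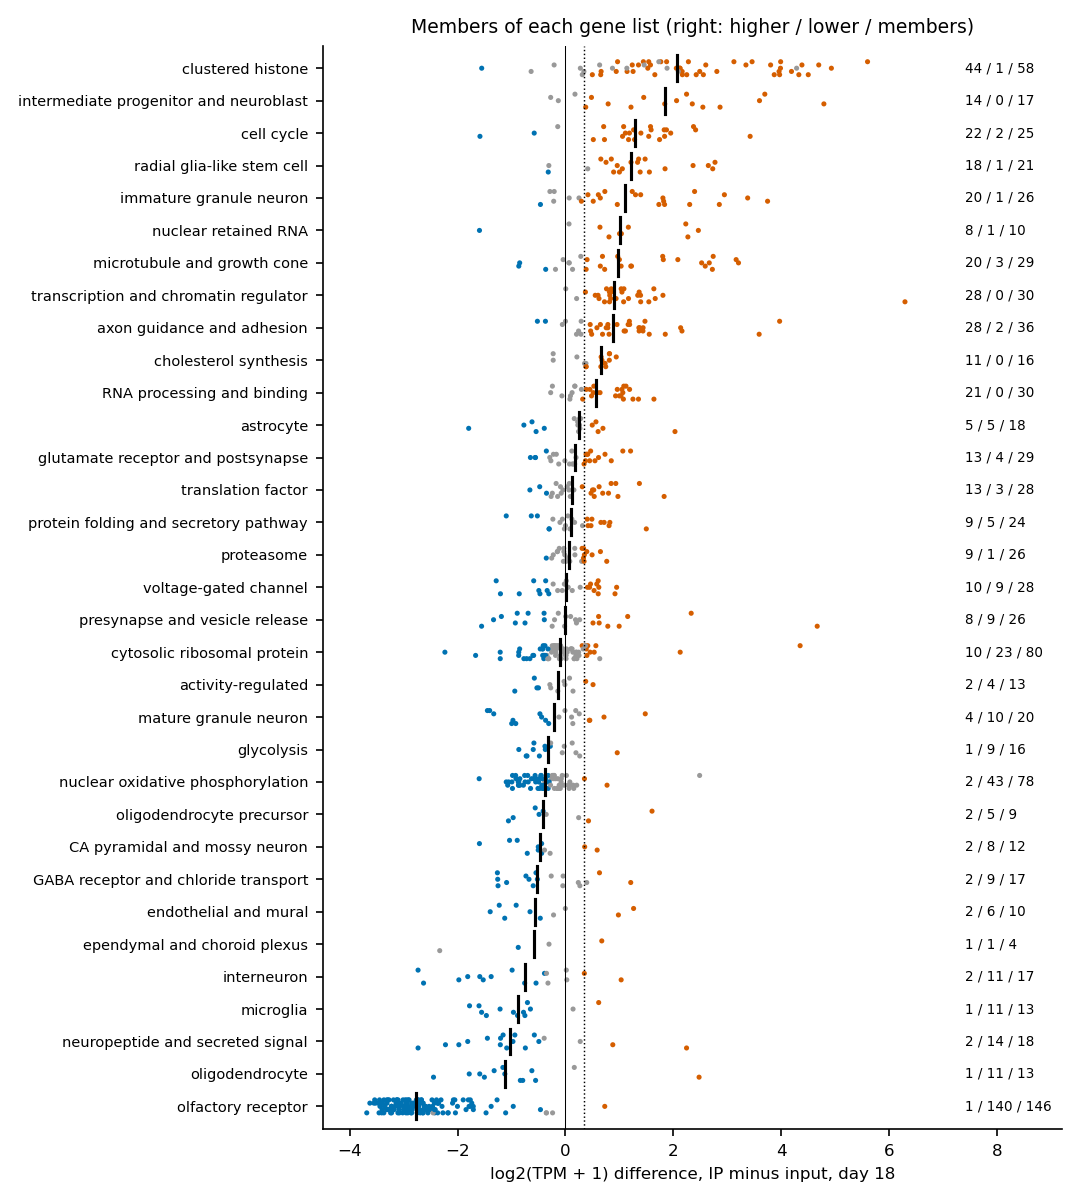
Difference between IP and input at day 18, as log2(TPM + 1), for each member of 33 gene lists. Each point is 1 gene, orange if higher, blue if lower and grey if it did not pass. Black bars are list medians, and the dotted line is the median of all 11987 genes at 0.35. Numbers on the right give higher, lower and members. Histone, progenitor, cell cycle and stem cell lists lie on the right and oligodendrocyte, neuropeptide and microglia lists on the left.

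Synaptic lists did not move as a block. Of 26 presynaptic genes, 8 were higher and 9 lower (median -0.01). Snap25, a membrane fusion protein of mature terminals, stood at 519, 400.3, 451 and 428 TPM in the IP and 1321, 1149.6, 1489.8 and 1329 TPM in the input and fell by 1.55 ± 0.12 (adjusted p = 1.2e-06). Unc13a, a relative of Unc13b, rose by 2.33 ± 0.11. Of 29 glutamate receptor and postsynaptic genes, 13 were higher and 4 lower (median 0.17), with the scaffold Shank2 at 1.21 and the receptor subunit Gria2 at 0.85. Under median-of-ratios scaling 8 of the 29 were lower. Of 17 GABA receptor and chloride transport genes, 9 were lower and 2 higher (median -0.52). Its subunits went apart: Gabra2 rose by 1.21 ± 0.15, while Gabrb2 fell by 1.09 ± 0.14. Of 28 voltage-gated channel genes, 10 were higher and 9 lower (median 0.00), and 3 were lower after either subtraction of the olfactory receptor level. Scn2b, an accessory sodium channel subunit, fell by 0.86. Of 13 activity-regulated genes, 4 were lower and 2 higher (median -0.14), with Bdnf at -0.58 and Nptx2 at -0.94. None of the 4 was lower after either subtraction.

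Energy and translation genes were mostly at or under the level of the input. Of 78 nuclear genes of oxidative phosphorylation, 43 were lower and 2 higher (median -0.37). Cox6c, a subunit of cytochrome oxidase, stood at 516, 559, 431 and 425 TPM in the IP and 923, 921, 1294 and 1015 TPM in the input (-1.098 ± 0.15, adjusted p = 5.3e-05). Ndufb6 of complex I fell by 0.98 ± 0.13 and Atp5l of the ATP synthase by 0.85 ± 0.11. After subtraction of the mean olfactory receptor level, 27 of the 78 were lower. Of 16 glycolysis genes, 9 were lower and 1 higher (median -0.33). Eno2 and Aldoa fell by 0.86 and 0.71, and Aldoc, the form of glia and stem cells, was the 1 that rose, at 0.96. Without the sedentary IP library d, 5 of the 16 were lower. Of 80 ribosomal protein genes, 23 were lower and 10 higher (median -0.11), with Rpl41 and Rps12 at -0.85 and -0.87. Under median-of-ratios scaling those counts were 36 and 4. Of 28 translation factors, 13 were higher and 3 lower (median 0.12), led by Eif5b at 1.83 and Eif3a at 1.37. Of 26 proteasome genes, 9 were higher and 1 lower (median 0.06), and 3 and 4 under median-of-ratios scaling. Of 24 folding and secretory genes, 9 were higher and 5 lower (median 0.10), with the disulfide isomerase Pdia4 at 1.497 and Srp9, of the signal recognition particle, at -1.098.

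Noncoding RNA moved both ways. Small nucleolar RNAs guide the chemical modification of ribosomal RNA in the nucleolus, and are cut from introns of host genes. The sequences of 3 of them are shown because they gave the largest falls among the small nucleolar RNAs kept. They come from GENCODE M21 on GRCm38, in DNA letters, and capitals mark ACA where it lies 3 bases before the 3′ end, the box that gives this class its name.
Snora81, chr16:23110756-23110933, plus strand, no ACA at that place in this annotation: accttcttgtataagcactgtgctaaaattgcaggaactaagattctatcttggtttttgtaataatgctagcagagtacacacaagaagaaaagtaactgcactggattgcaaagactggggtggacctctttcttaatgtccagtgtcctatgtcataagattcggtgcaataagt
Snora23, chr7:110046364-110046547, plus strand: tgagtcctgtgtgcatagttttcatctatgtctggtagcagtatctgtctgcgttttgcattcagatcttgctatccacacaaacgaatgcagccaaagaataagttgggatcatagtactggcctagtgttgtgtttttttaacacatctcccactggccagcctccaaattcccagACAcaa
Snora64, chr17:24720772-24720905, plus strand: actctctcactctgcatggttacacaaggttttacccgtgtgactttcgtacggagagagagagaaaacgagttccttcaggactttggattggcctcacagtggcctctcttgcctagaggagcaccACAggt
Snora23 lies in an intron of Ipo7 and meets none of its annotated exons. Snora81 lies in Eif4a2 and Snora64 in Rps2, where each meets exons of 2 annotated transcripts of the host, so reads of the host and of the small RNA could not be told apart there with certainty. Snora81 stood at 29.8, 3.57, 20.6 and 30.1 TPM in the IP and 775, 754, 770.1 and 1038 TPM in the input. Snora23 stood at 17.3, 12.5, 32.3 and 19.7 TPM and 359, 334, 262 and 359.9 TPM. Every input library was far above every IP library in both. They fell by 5.56 ± 0.68 (adjusted p = 0.0021) and 4.01 ± 0.21 (adjusted p = 3.4e-07). Snora64 fell by 4.74 ± 0.86, with 3 of the IP libraries listed at 0. The host messages moved little by comparison: Eif4a2 stood at -0.35 ± 0.13 (adjusted p = 0.028), Ipo7 at 0.53 ± 0.15 (adjusted p = 0.0075) and Rps2 at -0.33 ± 0.14, which did not pass (adjusted p = 0.054). Rmrp, the RNA of a nucleolar ribonuclease, fell by 2.82 ± 0.39 and Rnu12, of the minor spliceosome, by 3.25 ± 0.596. At days 11 and 27 Rmrp was also lower, at -2.25 and -1.98, whereas Rnu12 stood at -1.52 and -0.42 and did not pass. The Rnu12 input averaged 343 TPM at day 18, beside 82.8 TPM at day 11 and 53.9 TPM at day 27. Of 23 small nucleolar, Cajal body and spliceosomal RNAs taken by symbol, 8 were lower and 4 higher (median -0.80). Of the 23, 7 were kept through the input alone, Snora64 among them, and 5 through the IP alone. The rule set the direction of all of these.

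Long RNAs that stay in the nucleus were high in the IP. Malat1, a nuclear speckle RNA, stood at 36222, 31350, 41603 and 36468 TPM in the IP and 6425, 7223, 10007 and 6895 TPM in the input. Every IP library was above every input library, by 2.27 ± 0.17 (adjusted p = 8.3e-07). Xist, which coats the inactive X chromosome in these female mice, stood at 515, 268, 513 and 390.2 TPM in the IP and 73.5, 53.2, 97.1 and 75.4 TPM in the input (2.46 ± 0.16). Its antisense partner Tsix rose by 2.23, and without a stated strand setting the pair could not be told apart. Of 10 nuclear RNAs listed, 8 were higher and 1 lower (median 1.02). The 1 that fell was Kcnq1ot1, an imprinted RNA, at 231, 169, 203 and 199.9 TPM in the IP and 608, 791, 397 and 699 TPM in the input. Rpph1, the RNA of ribonuclease P, made up 4.58 to 9.16% of all TPM in the IP libraries and 2.37 to 3.75% in the input libraries. By annotation, 39 of 131 long intergenic RNAs were higher and 68 lower (median -0.48), against 5477 higher and 1828 lower of 10752 protein-coding genes (median 0.36). Of the long intergenic RNAs, 31 were kept through the input alone and 18 through the IP alone. Of the protein-coding genes, these numbers were 624 and 1054. The rule set the direction of all of them, so the contrast between the classes is partly one of selection.

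The difference rose with the number of exons, which the selection did not use. Among 9074 protein-coding genes at 10 TPM or more in both fractions, the median difference was 0.08 in genes of 1 to 5 exons and 0.17 in those of 6 to 8. It was 0.35 in genes of 9 to 12 exons, 0.46 at 13 to 18 and 0.73 at 19 to 146. Higher genes made up 32.3% of the first class and 77.6% of the last, and lower genes 24.4% and 4.12%. The order held in each of the 4 pairs of IP and input libraries with the same code, from 0.08, 0.25, -0.07 and 0.05 in the first class to 0.76, 0.88, 0.54 and 0.73 in the last. At day 11 the medians ran from -0.02 to 0.39 and at day 27 from 0.06 to 0.50, with the second class lowest at day 27 (0.05). Across genes, which are not independent, Spearman's rho was 0.36 for exon number, 0.20 for transcript length and 0.14 for gene length (Pearson's r 0.33, 0.18 and 0.06). Histone genes, with a median of 1 exon, lay against this order. The chromatin regulators, whose median was 29 exons, and the microtubule genes, with 26, lay along it.

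**Figure D4:**
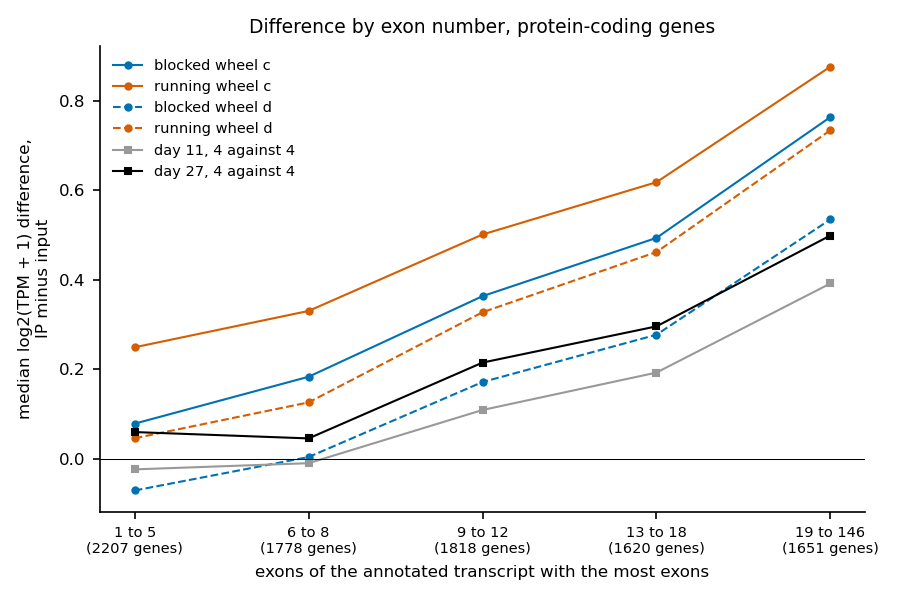
Median difference between IP and input, as log2(TPM + 1), in 5 classes of protein-coding genes by the highest exon number of an annotated transcript. Coloured lines are the 4 pairs of libraries of day 18 with the same code, and the grey and black lines are days 11 and 27 with 4 libraries a fraction. Every line is higher at 19 to 146 exons than at 1 to 5.

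Many lower genes had higher inputs at day 18 than on the other days. Of the 296 genes at 10 TPM or more in both fractions that fell over 2-fold, 152 (51.4%) had all 4 inputs above all 8 inputs of days 11 and 27. This held for 4.49% of the 9978 genes. The same day 18 inputs entered the choice of the 296, which by itself favours a high share, so these shares are not a test. Gcm1, a placental transcription factor, stood at 117, 136, 99.8 and 105 TPM in the IP and 903, 798, 458 and 672 TPM in the input. The mean of the inputs was 119 TPM in the day 11 libraries and 117 TPM in those of day 27, far below day 18. Cd84, an adhesion receptor of immune cells, stood at 59.6, 48.8, 50.2 and 52.5 TPM and 339, 453, 211 and 353 TPM, with input means of 43.9 and 97.2 TPM on the other days. Mid1, Cpox and Ms4a6c gave the same picture. These genes were chosen after their values were seen, as the largest falls of genes expressed in both fractions. Their inputs, like the olfactory receptor level, were above those of the other days, and the part of the background in them was not tested.

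Other lower genes were also lower on days 11 and 27. Of the 1469 lower genes at 10 TPM or more in both fractions, 799 were lower at day 11 and at day 27 as well (54.4%, beside 12.2% of all 9978 genes). Each day's values came from its own libraries. The calls of days 11 and 27 came from a fit of all 24 libraries, with a spread pooled over the days. Of the 296 that fell over 2-fold, 110 (37.2%) were lower on both other days and 165 on neither. Of the 799, 796 did not have day 18 inputs above all others. Led by size, and chosen after their values were seen, they included Snora23, Rmrp, Sst, Apod, Aldh1a1, Npy, Vsnl1 and Cck. The mean TPM of Sst in the input was 359 at day 18, beside 376 at day 11 and 316 at day 27. Npy, a neuropeptide of hilar interneurons, stood at 13.9, 26.3, 16.3 and 31.7 TPM in the IP and 82.6, 53.8, 149 and 79.1 TPM in the input (-1.98 ± 0.19, adjusted p = 7.5e-06), and at -2.04 and -3.01 on days 11 and 27. Aldh1a1, which makes retinoic acid, fell by 2.09 ± 0.14 (days 11 and 27, -2.05 and -2.48), and the neuronal calcium sensor Vsnl1 by 1.96 ± 0.15. Upward, 2458 of the 4950 higher genes (49.7%) were also higher on both other days, beside 27.5% of all 9978, and so were 1053 of the 1223 over 2-fold higher (86.1%).

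**Figure D5:**
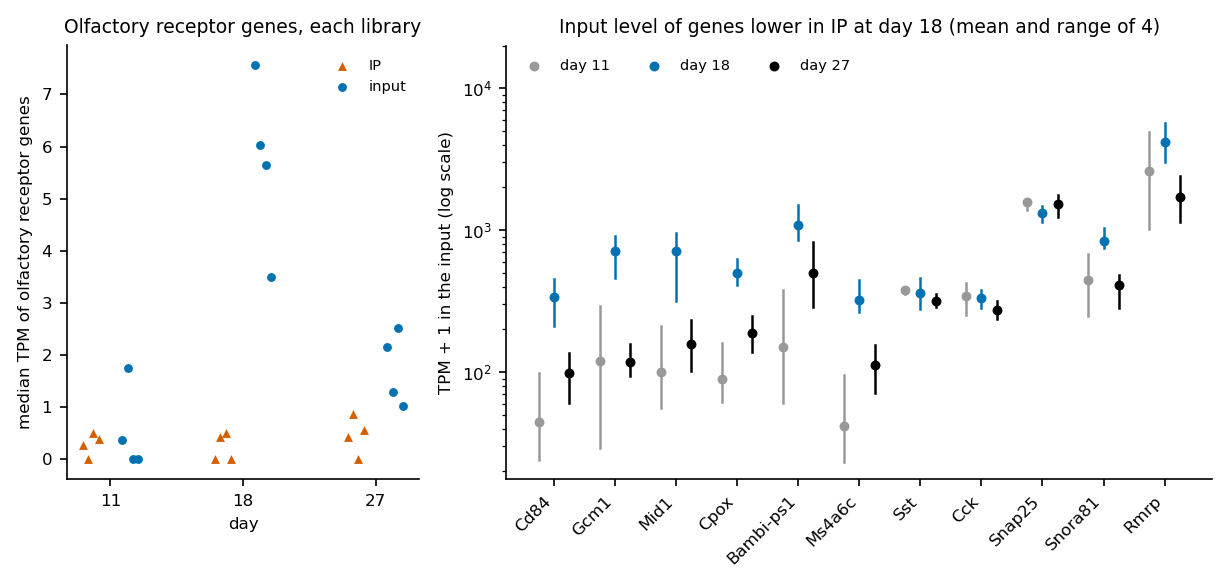
Left, the median TPM of 1122 olfactory receptor genes in each library by day (triangles IP, circles input). Right, the input level of 11 genes lower in the IP at day 18, as mean and range of 4 libraries a day on a log axis of TPM + 1. Cd84, Gcm1, Mid1, Cpox and Ms4a6c have day 18 inputs above those of the other days, and Sst, Cck and Snap25 have not.

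The test of day asked whether the gap between IP and input at day 18 differed from the mean gap at days 11 and 27. Of the 11987 genes, 2211 (18.4%) had a more positive gap at day 18 and 1092 (9.11%) a more negative one. Without the sedentary input library c, the first count was 1314. Of the 1092, 505 had been kept through the input alone, where the rule favours a more negative gap at day 18. Rhox3e and Prl2c2, kept through the input alone, fell by 4.34 ± 0.78 and 4.304 ± 0.28 at day 18, more than Snora23. The most negative gaps in the test of day among proper names included Rhox3e, Prl2c2, Tmed11 and Mup13, at -3.43, -3.35, -3.36 and -3.04. Among the positive ones, Snrnp70, a protein of the U1 spliceosome particle, had gaps of 1.69 at day 18, 0.23 at day 11 and 0.42 at day 27 (difference 1.36 ± 0.26, adjusted p = 0.0011). Safb2, a scaffold attachment factor, gave 1.35 ± 0.26 (adjusted p = 0.00097) and the dynein regulator Gas8 1.403 ± 0.21 (adjusted p = 0.00041). Members of 3 lists were often among the positive ones: 17 of 30 chromatin regulators, 16 of 29 microtubule genes and 15 of 28 translation factors, with none negative. Eif3a, a subunit of the initiation factor that brings messages to the ribosome, had gaps of 1.37, 0.31 and 0.22 at days 18, 11 and 27 (difference 1.11 ± 0.23, adjusted p = 0.0016). Kcnq1ot1 turned around: -1.59 at day 18, 0.56 at day 11 and 0.12 at day 27 (difference -1.94 ± 0.25, adjusted p = 0.00028). Of the 1122 olfactory receptor genes, 135 kept ones were more negative at day 18. Day and library preparation cannot be told apart here, since each day has libraries of its own letters.

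The test of running asked whether the gap differed between running and sedentary mice at day 18. None of the 11987 genes passed (0.0%) with limma, and 1099 had an unadjusted p under 0.05. Lowest in p was Hes6, a helix-loop-helix protein of differentiating neuroblasts, at 27.9, 39.8, 24.03 and 38.8 TPM in the IP and 13.8, 5.32, 13.03 and 5.21 TPM in the input (running minus sedentary gap 1.78 ± 0.26, adjusted p = 0.085). Both running inputs were below both sedentary inputs, and both running IPs above both sedentary IPs. Calb2, the calcium buffer calretinin of immature granule neurons and mossy cells, stood at 138, 549, 116 and 324 TPM in the IP and 131, 112, 161 and 134 TPM in the input. The running IP libraries were above the sedentary ones, while the inputs lay close together (gap 1.97 ± 0.33, adjusted p = 0.14). Lars2, Plac9a and Dynlt1b followed at -2.05, 3.46 and 3.01, with adjusted p of 0.085, 0.14 and 0.17. Of the 26 immature granule neuron genes, the median gap difference was 0.79, beside 0.11 for all 11987 genes. For stem cell genes it was -0.11 and for mature granule neuron genes 0.02. With 2 libraries a group these are descriptions, since no gene passed.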

How the data were processed

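RNA of 8 libraries of day 18 was compared, 4 IP and 4 input. The 16 libraries of days 11 and 27 served the contrast of days, the calls and values given for those days, and an alternative fit. Per the submitters' processing notes, the authors used RSEM and the mm10 build, and the libraries came from a stranded total RNA kit per the labels' protocols. Not given in the sources used here are the version of RSEM, its aligner and annotation, and how strand was set. The deposited values are TPM, 1 table of 23306 genes in which each library sums to 1000000. TPM keeps no read depth, so the depth is unknown and precision rests on the spread between libraries. A value of 0 is given as listed at 0.

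Values were taken as log2(TPM + 1), on which differences of low genes are understated, and fitted by lmFit and a trended, robust eBayes of limma 3.58.1 (R 4.3.3). Entry required a mean of 1 TPM across the 8 libraries, which 21324 genes met, in 4 groups of fraction and activity. P-values were two-sided and adjusted by Benjamini and Hochberg over all genes fitted, with a threshold of 0.05, and errors are SE unless given as SD. The contrast of days used 12 groups of all 24 libraries, as did the calls of IP against input at day 11 and at day 27. Coordinates, exons and biotypes come from GENCODE M21 (GRCm38, the mm10 assembly), in which 21617 names were found once, and 27 names turned into dates were not named. On simulated data for the comparison of IP with input (21324 genes), 58 of 100 genes changed by 1 on the log2 scale and 9 of 100 changed by 0.5 were called, with 1 of 21124 unchanged genes. Only 200 genes were changed there, whereas 30.1% of the genes fitted were called higher and 34.5% lower in the data. The adjusted threshold was thus stricter in the simulation, and its shares do not give the sensitivity in the data. Named genes were the 15 largest differences a direction among genes past the threshold whose 4 IP and 4 input libraries do not overlap, up to 4 genes of lowest p in each of 34 lists, 5 to 10 genes of the other contrasts and 12 fixed markers. Gene models were only counted, and some named genes are not reported here. Further list members are given where a list is described. The comparison, the members and the lists were chosen with earlier results of these data known. Alternatives were other pseudocounts (0.1 and 5), median-of-ratios scaling, no filter, other membership rules, all 24 libraries, fraction alone, a block on the library code, subtraction of the olfactory receptor level and leaving out each library.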

Additional observations from a re-analysis of the deposited data

Results flagged for a closer look

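These results differ between days, by limma's test of the IP to input gap at day 18 against the mean of days 11 and 27. The groups of 2 libraries are too small for a search for single outlying libraries. Among genes named for their size or as fixed markers, the gap was more positive at day 18 for Hist1h2bf (1.55 ± 0.43), Rpl22 (0.74 ± 0.19), Calb2 (0.74 ± 0.25), Prox1 (0.598 ± 0.15), Neurod1 (0.56 ± 0.19) and Gfap (0.49 ± 0.16). Hist1h2bf was kept through the IP alone and named for its rise at day 18, so the selection favoured its direction. Rpl22 itself stood at 0.41 at day 18, -0.12 at day 11 and -0.54 at day 27. The gap was more negative for Rhox3e (-3.43), Prl2c2 (-3.35), Tmed11 (-3.36), Vmn1r160 (-3.15), Vmn1r132 (-2.98), Krtap20-2 (-2.97), Olfr1002 (-2.92), Olfr1303 (-2.696), Vmn2r42 (-2.65), Olfr981 (-2.45), Olfr624 (-2.43) and Prp2 (-2.18). These 12 include receptor, keratin-associated, prolactin-family, salivary and homeobox genes. In all of them the mean input was higher at day 18 than at days 11 and 27, as the olfactory receptor level was. All 12 were kept through their day 18 input alone and named for their day 18 fall. The selection thus favoured both the negative gap and the high input. The part of the background in their gaps was not tested.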

How the results depend on the processing

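The counts of higher genes (6001) stayed within 1.5 times under every alternative run. The count of lower genes, 2147, was 852 after subtraction of the mean olfactory receptor TPM and 1289 after subtraction of the median, which was chosen after seeing the data. The counts of more positive and more negative gaps at day 18 were 8900 and 510 after subtraction of the mean, and the positive count was 5819 after subtraction of the median. Leaving out 1 library gave 5349 to 5968 higher genes, 1823 to 2141 lower genes, 0 to 6 genes for running, and 1314 to 2472 and 938 to 1113 for day. The olfactory receptor difference was 8.04 to 10.8 TPM, with an exact permutation p of 0.0571 without any 1 IP library. Across genes, library codes did not meet the bar for pairing IP with input (every correlation of deviations from the fraction mean over 0.1): they gave 0.14, 0.01, 0.03 and 0.03, and 2 of 4 codes matched best with their own. Single genes such as Ttr were high in both libraries of 1 code. With a block on the code there were 5800 higher and 2013 lower genes and 1 gene for running. Directions reversed after subtraction of the mean for Gjb6 (0.12), Gpr17 (1.27), Igfbp7 (0.32), Kl (1.01), Gabrg1 (0.62), Nptx2 (0.32), Ptgs2 (1.45) and Rpl10l (0.17), and of the median for Gpr17 (0.12) and Ptgs2 (0.11). The cause was not tested. TPM keeps no depth, so low values have no counting limit.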

Other observations

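Gene groups outside the comparisons above gave a few further values. Lpar1 and Hopx, markers of quiescent stem cells, stood at 1.36 and 1.34, and Eomes, the transcription factor of intermediate progenitors, stood at 2.86 with 34.2, 48.2, 28.6 and 39.8 TPM in the IP and 4.75, 4.96, 2.16 and 5.87 TPM in the input. Mex3a, an RNA-binding protein of progenitors, rose by 2.39 ± 0.14. Among vascular genes, the mural markers Myl9 and Pdgfrb rose by 1.26 and 0.98, while the endothelial Ly6c1 fell by 1.395. Eomes, Myl9 and Pdgfrb were kept through the IP alone and Ly6c1 through the input alone, so the rule set their directions. Gjc3, a connexin of myelinating cells, had a gap of -1.78 at day 18, 0.42 at day 11 and -0.16 at day 27 (difference -1.92 ± 0.297, adjusted p = 0.00047). The inputs averaged 654 TPM at day 18, against 104 in the libraries of day 11 and 252 in those of day 27. Kcnj13, a potassium channel of choroid plexus, was higher in the IP (0.67 ± 0.15), but it was kept through the IP alone, which set its direction. Ttr did not pass in either direction.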
